A study of Saccharomyces cerevisiae with 7 samples.

Results

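The a-specific mating genes of budding yeast, Saccharomyces cerevisiae, were followed in haploid cells that lack either subunit of the Ssn6-Tup1 corepressor. They were taken by gene symbol from the platform annotation as MFA1, MFA2, STE2, STE6, BAR1, AGA2 and ASG7. All 7 had a probe set, 1 each, among 5449 genes tested on the array. RNA was hybridised from 2 samples with an SSN6 knockout, 2 with a TUP1 knockout and 3 of wild type, called ssn6 deletion, tup1 deletion and wild type here. All were in the background BY4742, a laboratory strain of the alpha mating type, and all were grown in YEP with 2% glucose to an OD600 of 0.8. The labels do not say whether replicates were separate cultures or whether each deletion is a single clone. The p-values therefore reflect how far these particular samples scattered, which may be technical.

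Haploid yeast cells are of type a or alpha, and each type makes its own pheromone and the receptor for the pheromone of the other. The a-specific genes give an a cell its pheromone, its receptor and its adhesion protein. In alpha cells the repressor alpha2 binds their promoters together with Mcm1 and brings in Ssn6-Tup1, which keeps them low. In a cells alpha2 is absent and Mcm1 activates the same genes.

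The authors deposited log2 expression values, 1 for each probe set, and a difference of 1 is a change of 2-fold. The median over all genes lay between 10.95 and 11.06 on the 7 arrays. A background floor for each array, the 95th percentile of the 1746 probe sets for fission yeast genes, lay between 5.50 and 5.67. CYC8, the gene for Ssn6, read 5.62 and 6.07 in the ssn6 deletion and 11.22 to 11.32 in wild type. TUP1 read 4.69 and 5.07 in the tup1 deletion, under the floor, and 11.56 to 12.50 in wild type. Of the strain's known auxotrophic markers, LYS2 and URA3 were under the floor on all 7 arrays, and LEU2 read 5.47 to 5.80. HIS3 read 11.82 to 12.57, against what its marker would give; where its probe set lies relative to the deleted part is not known here. The alpha-specific genes named further on read 11.85 to 13.18 in wild type. In wild-type replicate 2 the actin controls were unlike those of the other arrays: the 3' signal exceeded the 5' signal by 2.06 and 2.85 log2 units in 2 pairs of probe sets. On the other 6 arrays these gaps were 0.30 to 0.61 and 0.52 to 0.92. The number of arrays limits the precision of all values.

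All 7 a-specific genes rose in both deletions, by a median log2 difference of 4.05 in the ssn6 deletion and 2.67 in the tup1 deletion. The 3 wild-type arrays serve both comparisons. The corresponding medians over all 5449 genes were −0.14 and −0.08. Genes called higher at an adjusted p of 0.05 made up 9.18% of all genes in the ssn6 deletion and 10.4% in the tup1 deletion. Rises of 4-fold or more were seen for 6 of the 7 in the ssn6 deletion and 5 in the tup1 deletion, against 2.72% and 2.02% of all genes. The sum of the 7 values on the linear scale was 27449 and 26735 in the ssn6 deletion, 11804 and 12533 in the tup1 deletion, and 1783 to 2472 in wild type.

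**Figure D1:**
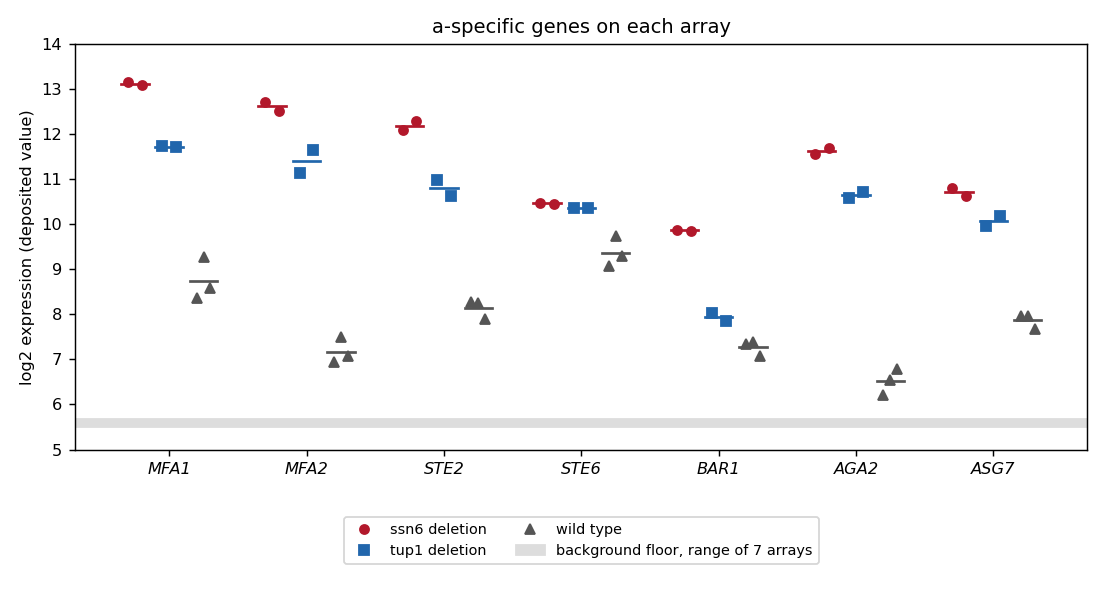
Deposited log2 expression (vertical axis) of each a-specific gene in the ssn6 deletion (2 arrays), the tup1 deletion (2 arrays) and wild type (3 arrays); points are arrays, bars are means, and the grey band is the background floor (5.50 to 5.67). For all 7 genes the ssn6 points lie above the tup1 points and these above the wild-type points, narrowly so for STE6.

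The precursor genes of the pheromone a-factor, a farnesylated peptide, were among the strongest risers. MFA1 (YDR461W) had log2 levels of 13.16 and 13.08 in the ssn6 deletion, 11.74 and 11.71 in the tup1 deletion, against 8.36, 9.27 and 8.59 in wild type. The genotypes did not overlap, and the lowest tup1 array stood 2.44 above the highest wild-type one. MFA1 rose 20.8-fold in the ssn6 deletion (4.38 ± 0.26, moderated SE, adjusted p = 5.02e-05) and 7.91-fold in the tup1 deletion (2.98 ± 0.26, adjusted p = 0.00037). MFA2 (YNL145W) had 12.71 and 12.52 in the ssn6 deletion, 11.15 and 11.65 in the tup1 deletion, against 6.94, 7.49 and 7.07 in wild type. It showed the largest difference of the 7 genes in both deletions, 43.6-fold in the ssn6 deletion (5.45 ± 0.22, adjusted p = 1.06e-05) and 18.8-fold in the tup1 deletion (4.23 ± 0.22, adjusted p = 4.26e-05). For both genes wild-type replicate 2 was the highest wild-type array. Without that array MFA1 differed from wild type by 4.65 in the ssn6 deletion and 3.25 in the tup1 deletion, and MFA2 by 5.61 in the ssn6 deletion and 4.39 in the tup1 deletion.

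STE6, which encodes the ABC transporter that exports a-factor, changed far less than the genes of its cargo. STE6 (YKL209C) read 10.47 and 10.46 in the ssn6 deletion, 10.35 and 10.36 in the tup1 deletion, against 9.07, 9.74 and 9.30 in wild type. The wild-type arrays spread over 0.67, with replicate 2 again the highest, and the deletions lay above all of them. The rise was 2.13-fold in the ssn6 deletion (1.09 ± 0.20, adjusted p = 0.0116) and 1.98-fold in the tup1 deletion (0.99 ± 0.20, adjusted p = 0.0149). The first call was lost without ssn6 replicate 1 (adjusted p = 0.0912) or 2 (0.0974), with differences of 1.09 and 1.10. The second was lost without tup1 replicate 1 (0.0924) or 2 (0.0544), with differences of 0.99 and 0.98. Leaving out an array of a deletion leaves that genotype with 1 array, which is then assumed to vary like the other genotypes, here and in all such fits.

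STE2 encodes the receptor through which a cells sense alpha-factor. STE2 (YFL026W) had log2 levels of 12.10 and 12.28 in the ssn6 deletion, 10.99 and 10.63 in the tup1 deletion, against 8.27, 8.25 and 7.89 in wild type. The 3 genotypes were separate, by at least 1.11 between the deletions. STE2 rose 16.6-fold in the ssn6 deletion (4.05 ± 0.18, adjusted p = 1.67e-05) and 6.37-fold in the tup1 deletion (2.67 ± 0.18, adjusted p = 0.000133).

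BAR1, the gene of the secreted protease that degrades alpha-factor, behaved differently in the deletions. BAR1 (YIL015W) read 9.88 and 9.86 in the ssn6 deletion, 8.03 and 7.84 in the tup1 deletion, against 7.33, 7.39 and 7.08 in wild type. The tup1 arrays lay close to wild type, 0.45 above its highest array, while the ssn6 arrays stood 1.83 above both tup1 arrays. The rise was 6.07-fold in the ssn6 deletion (2.60 ± 0.15, adjusted p = 4.41e-05). In the tup1 deletion it was 1.59-fold (0.67 ± 0.15, adjusted p = 0.0193), a call lost without tup1 replicate 1 (adjusted p = 0.116), without ssn6 replicate 1 or 2 (0.0537 each), with only the genotypes compared in the fit (0.0537), with trend and robust settings (0.0638), with quantile normalization (0.0955) and with a block for the replicate number, as labelled (0.0691) or crossed (0.0769).

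AGA2 encodes the binding subunit of a-agglutinin, the adhesion protein by which a cells hold on to alpha cells. AGA2 (YGL032C) had 11.57 and 11.70 in the ssn6 deletion, 10.58 and 10.71 in the tup1 deletion, against 6.22, 6.55 and 6.78 in wild type. In wild type it was 0.65 above the floor on the array where the margin was smallest. The 3 genotypes were separate, the deletions by 0.86. AGA2 rose 34.7-fold in the ssn6 deletion (5.12 ± 0.19, adjusted p = 6.14e-06) and 17.5-fold in the tup1 deletion (4.13 ± 0.19, adjusted p = 2.3e-05).

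ASG7 encodes a protein that dampens pheromone signalling through the G-protein beta subunit. ASG7 (YJL170C) read 10.80 and 10.62 in the ssn6 deletion, 9.96 and 10.18 in the tup1 deletion, against 7.96, 7.96 and 7.67 in wild type. The genotypes were again separate. Its rise was 7.21-fold in the ssn6 deletion (2.85 ± 0.16, adjusted p = 3.96e-05) and 4.62-fold in the tup1 deletion (2.21 ± 0.16, adjusted p = 0.000158).

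**Figure D2:**
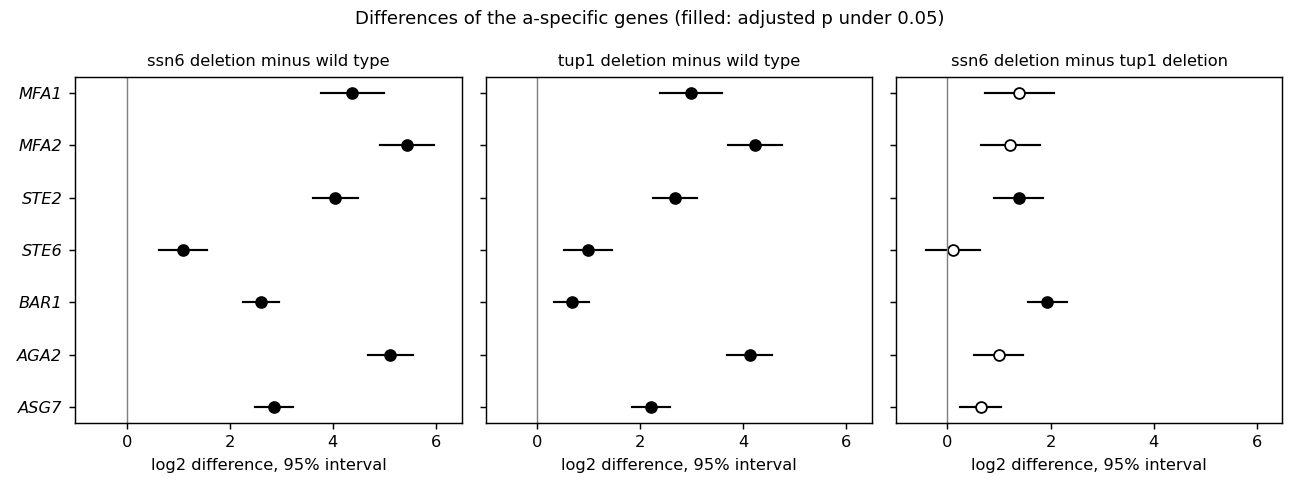
Log2 differences (horizontal axis) with 95% intervals for each a-specific gene in the ssn6 deletion against wild type, the tup1 deletion against wild type, and the ssn6 against the tup1 deletion; filled points passed an adjusted p of 0.05. All 14 points against wild type are filled; between the deletions only STE2 and BAR1 are, and STE6 lies near 0.

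The 95% intervals of the rises were separate for some pairs of genes and overlapped for others, and no test was run between genes. In the ssn6 deletion the 95% intervals of MFA2 (4.92 to 5.97) and AGA2 (4.68 to 5.55) overlapped, as did those of MFA1 (3.77 to 4.99) and STE2 (3.62 to 4.48), and that of MFA1 also reached into those of MFA2 and AGA2. Those of ASG7 (2.48 to 3.22) and BAR1 (2.26 to 2.95) overlapped each other and lay below these 4. STE6 lay below all others (0.62 to 1.57). In the tup1 deletion MFA2 (3.71 to 4.75) and AGA2 (3.69 to 4.56) were again highest, STE6 (0.51 to 1.46) and BAR1 (0.32 to 1.01) lowest. Among all 5449 genes ordered by their difference in the ssn6 deletion, MFA2 ranked 13, AGA2 14, MFA1 28 and STE2 40, while ASG7 ranked 79, BAR1 95 and STE6 310. In the tup1 deletion MFA2 ranked 20 and AGA2 23, and STE6 and BAR1 ranked 367 and 582.

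**Figure D3:**
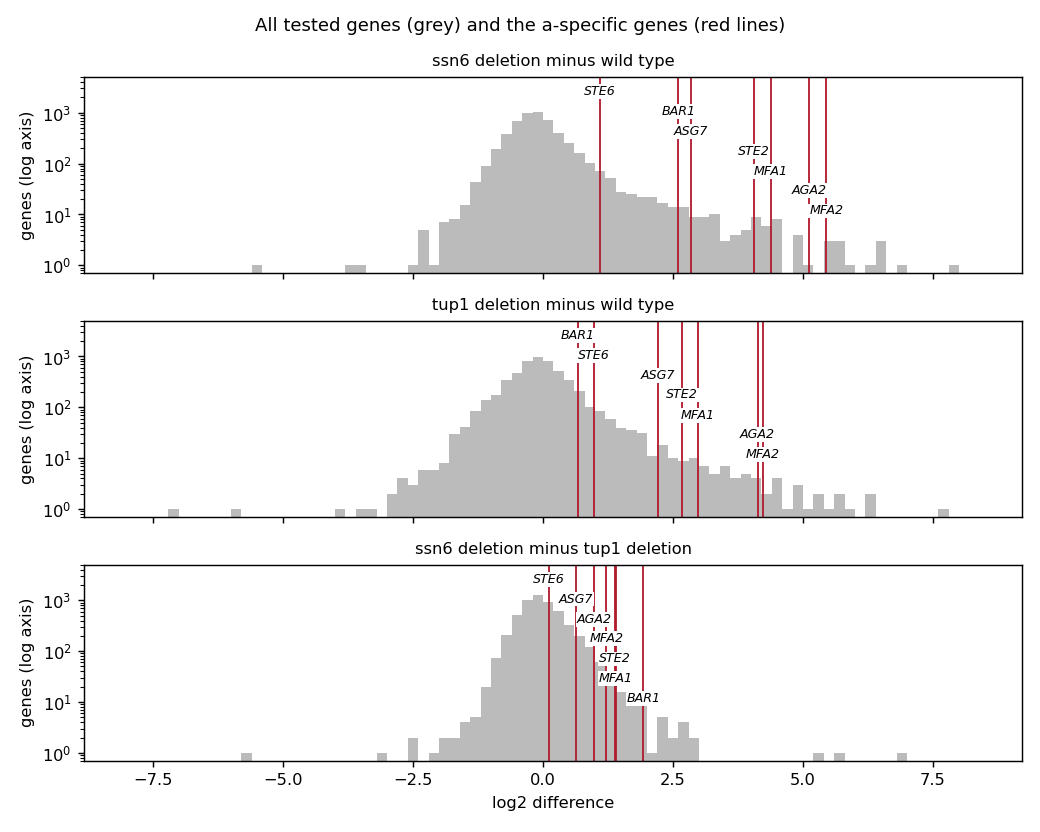
Number of genes (vertical axis, log scale) by log2 difference (horizontal axis) for all 5449 genes, with the 7 a-specific genes as red lines, in the ssn6 deletion against wild type, the tup1 deletion against wild type, and the ssn6 against the tup1 deletion. MFA2 and AGA2 lie in the far upper tail of the first panels, with differences above 4, while STE6 lies at 1.09 and 0.99.

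Set directly against each other, the ssn6 deletion had the higher a-specific levels, by a median of 1.22 over the 7 genes and of −0.07 over all genes. This was not particular to the a-specific genes. Of the lists described further on, the 5 alpha-specific genes had a larger median, 1.89, and the 13 pheromone-induced genes had 0.54. The medians were −0.14 for a-factor maturation, −0.008 for pheromone signalling and −0.02 for mating-type regulators. BAR1 was 3.82-fold higher in the ssn6 than in the tup1 deletion (1.93 ± 0.16, adjusted p = 0.00339), and STE2 2.60-fold higher (1.38 ± 0.20, adjusted p = 0.0207). These 2 passed, where 1.91% of all genes were called higher. MFA1 (1.40 ± 0.28, adjusted p = 0.0566), MFA2 (1.22 ± 0.24, adjusted p = 0.0547), AGA2 (0.99 ± 0.20, adjusted p = 0.058) and ASG7 (0.64 ± 0.17, adjusted p = 0.112) did not pass. For STE6 the difference was 0.11 ± 0.22 (adjusted p = 0.806), with a 95% interval of −0.41 to 0.63.

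The count of 2 turned on single arrays. BAR1 was lost without ssn6 replicate 2 (adjusted p = 0.0548). STE2 was lost without ssn6 replicate 1 (0.153) or 2 (0.241) and without tup1 replicate 1 (0.0808) or 2 (0.0529). Without wild-type replicate 2, the array with unlike actin controls, 4 genes passed, with MFA1 at an adjusted p of 0.00771 and MFA2 at 0.0324. Without wild-type replicate 3 the count was 3, AGA2 (0.0479) joining STE2 and BAR1. The differences themselves moved less, the median staying between 0.97 and 1.29 when each array was left out.

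On the level of single arrays, all 7 genes showed the same order, every ssn6 array above every tup1 array and every tup1 array above every wild-type array. Among all genes, 4.06% showed this order. Of all genes 20.3% had every ssn6 array above every wild-type array, 22.0% every tup1 array above wild type, and 24.4% every ssn6 array above every tup1 array. For STE6 the gap between the deletions was 0.10, so its order rests on a small distance.

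Set against the mean of the other 6 on the same array, BAR1, STE6 and ASG7 stood lower in each deletion than in wild type. Between the deletions BAR1 differed in the opposite direction to STE6 and ASG7. BAR1 stood at −1.92 on both ssn6 arrays, −2.76 and −3.03 on the tup1 arrays, and −0.47 to −0.82 in wild type, so its relative level was lower in the tup1 deletion than in the ssn6 deletion. STE6 stood at −1.24 and −1.22 in the ssn6 deletion, −0.06 and −0.09 in the tup1 deletion, and 1.56 to 1.92 in wild type. ASG7 stood at −0.84 and −1.03 in the ssn6 deletion, −0.51 and −0.30 in the tup1 deletion, and −0.16 to 0.27 in wild type. For AGA2 the relative level was close in the deletions, 0.05 and 0.23 in the ssn6 deletion and 0.21 and 0.31 in the tup1 deletion, against −1.80 to −1.15 in wild type. These values compare the change of a gene with that of the others, not the levels of different genes, and no test was run on them.

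The genes that mark the cells' own mating type had negative median differences, and all of them fell in the tup1 deletion, AFB1 only narrowly. Of 5 alpha-specific genes, 2 fell in the ssn6 deletion, where 10.3% of all genes were called lower, and 5 fell in the tup1 deletion, where 12.6% were. Their median differences were −0.55 and −2.69. The alpha-factor gene MF(ALPHA)2 read 6.76 and 7.07 in the tup1 deletion and 12.77 to 12.83 in wild type, a fall of 5.88 ± 0.14 (adjusted p = 1.68e-06). In the ssn6 deletion it read 12.20 and 12.28. Its fall there, −0.55 ± 0.14 (adjusted p = 0.0341), was lost after median centring (0.0569), with the replicate block (0.0844), or without ssn6 replicate 1 (0.236) or 2 (0.201) or wild-type replicate 1 (0.0677) or 3 (0.0617), and with the crossed block (0.117). STE3, the receptor for a-factor and the counterpart of STE2, fell by 1.97 ± 0.14 in the ssn6 deletion (adjusted p = 0.000128) and fell by 2.77 ± 0.14 in the tup1 deletion (adjusted p = 3.97e-05).

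SAG1, MF(ALPHA)1 and AFB1 passed against wild type in the tup1 deletion but not in the ssn6 deletion. SAG1, the alpha-agglutinin that AGA2's product binds, fell there by 2.66 ± 0.21 (adjusted p = 0.00029) and read −0.38 ± 0.21 in the ssn6 deletion (adjusted p = 0.242). MF(ALPHA)1, the other alpha-factor gene, read 9.49 and 10.83 in the tup1 deletion and 12.52 to 13.18 in wild type. It fell by 2.69 ± 0.38 (adjusted p = 0.00374), fell by 2.02 without tup1 replicate 1 and fell by 3.36 without tup1 replicate 2, and read −0.79 ± 0.38 in the ssn6 deletion (adjusted p = 0.176). AFB1, of a secreted barrier protein for a-factor, passed narrowly in the tup1 deletion (−0.63 ± 0.19, adjusted p = 0.0496). The count of 5 alpha-specific falls there became 4 after median centring, with only the genotypes compared or with the replicate block. It was also 4 without wild-type replicate 1 or 3. Between the deletions 2 of the 5 passed, MF(ALPHA)2 (5.32 ± 0.15, adjusted p = 1.58e-05) and SAG1 (2.28 ± 0.24, adjusted p = 0.00663), both higher in the ssn6 deletion. MF(ALPHA)1 did not (1.89 ± 0.41, adjusted p = 0.0678). The SAG1 call was lost without ssn6 replicate 1 (0.0566) or 2 (0.0889). The ssn6 deletion thus had higher levels than the tup1 deletion of BAR1 and STE2 among the a-specific genes and of MF(ALPHA)2 and SAG1 among the alpha-specific genes.

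**Figure D4:**
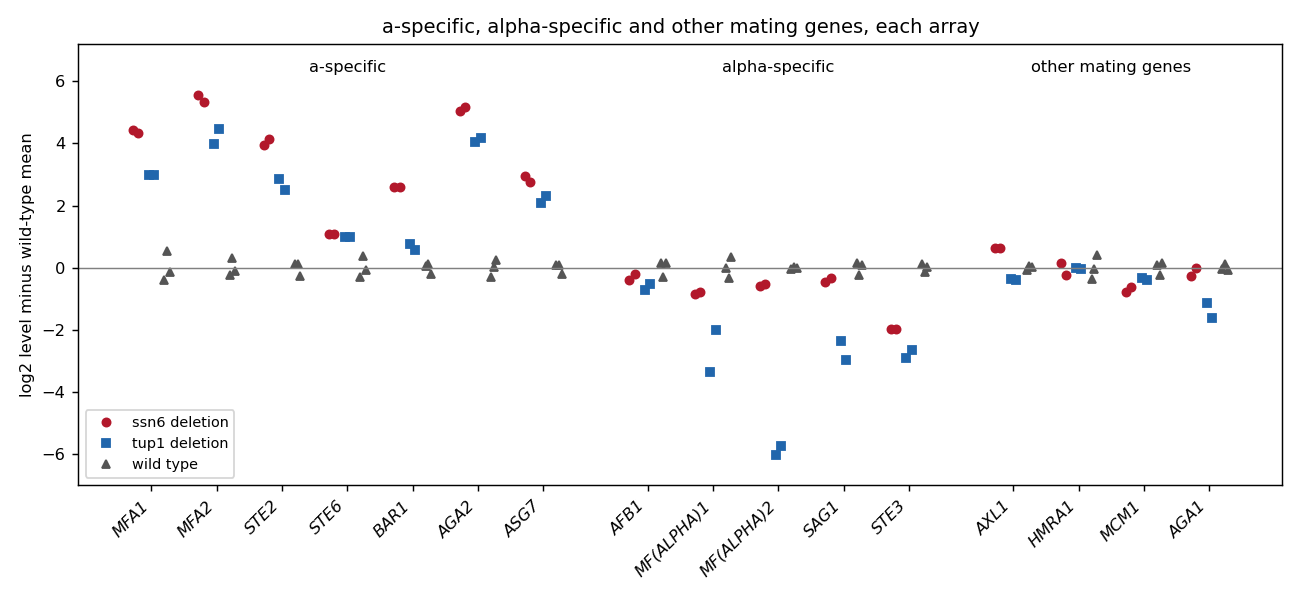
Log2 level minus the wild-type mean (vertical axis) on each array for 7 a-specific genes, 5 alpha-specific genes and AXL1, HMRA1, MCM1 and AGA1, in the ssn6 deletion, the tup1 deletion and wild type. The a-specific genes lie above 0 in both deletions, while MF(ALPHA)2 lies near −6 in the tup1 deletion and near −0.5 in the ssn6 deletion, and HMRA1 lies around 0 in all.

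Cells of both mating types express the genes whose products join or mature the a-specific proteins. AGA1 encodes the anchor subunit that holds Aga2 on the cell wall. It read 10.81 and 11.07 in the ssn6 deletion, 9.95 and 9.46 in the tup1 deletion, against 11.02, 11.17 and 11.01 in wild type. It fell by 1.36 ± 0.18 in the tup1 deletion (adjusted p = 0.00302) and read −0.13 ± 0.18 in the ssn6 deletion (adjusted p = 0.651), so the 2 a-agglutinin subunits changed in opposite directions in the tup1 deletion. Of 7 genes for farnesylation, processing and methylation of a-factor, 1 rose and 0 fell in the ssn6 deletion, and 0 rose and 1 fell in the tup1 deletion, with medians of −0.03 and −0.02. These counts lie near the shares of all genes called in those directions, 9.18% higher in the ssn6 deletion and 12.6% lower in the tup1 deletion.

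The maturation gene that rose was AXL1, of a protease that cleaves the a-factor precursor. AXL1 read 11.33 and 11.31 in the ssn6 deletion, 10.32 and 10.28 in the tup1 deletion, against 10.60, 10.75 and 10.70 in wild type. Its rise in the ssn6 deletion was 0.63 ± 0.12 (adjusted p = 0.0136), lost without ssn6 replicate 1 (0.138) or 2 (0.140) and with the replicate block (0.0568). AXL1 was higher in the ssn6 than in the tup1 deletion by 1.02 ± 0.13 (adjusted p = 0.0156), which was lost without ssn6 replicate 1 (0.2) or 2 (0.211) or tup1 replicate 1 (0.0885) and with the block (0.0647). RAM1, the beta subunit of the farnesyltransferase, fell by 0.68 ± 0.14 in the tup1 deletion (adjusted p = 0.0164), a call lost without tup1 replicate 2 (0.0566) and with the block (0.0681).

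The signalling pathway that STE2 feeds into is shared by both mating types. Of 15 pheromone signalling genes, 0 rose and 2 fell in the ssn6 deletion, a count near the 10.3% of all genes called lower there. Among them 0 rose and 5 fell in the tup1 deletion, where 12.6% of all genes were called lower. The count of 2 was 0 without wild-type replicate 1, ssn6 replicate 1 or ssn6 replicate 2, 0 with quantile normalization or the block, and 1 without wild-type replicate 3; the count of 5 was 3 without tup1 replicate 1. The count of 2 also gave 1 after median centring or with trend and robust settings and 7, of them 1 rise, with array weights. SST2, of the GTPase-activating protein that switches the pathway off, fell by 2.45 ± 0.17 in the tup1 deletion (adjusted p = 0.000133). In the ssn6 deletion SST2 read −0.71 ± 0.17 (adjusted p = 0.0269). That call was lost with quantile normalization (0.0648), with the block (0.0706) or the crossed block (0.103), and without wild-type replicate 1 (0.0613) or 3 (0.0536). It was also lost without ssn6 replicate 1 or 2, with differences of −0.63 and −0.79. GPA1, the G-protein alpha subunit, fell in the tup1 deletion by 0.999 ± 0.14 (adjusted p = 0.0032), and STE12, the transcription factor of the pathway, by 1.07 ± 0.19 (adjusted p = 0.00831).

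Of 13 genes induced by pheromone, 3 rose and 0 fell in the ssn6 deletion, where 9.18% of all genes were called higher. The tup1 deletion gave 0 rises and 3 falls, where 12.6% were called lower. The 3 rises became 0 without ssn6 replicate 1 or 2. FUS1, for cell fusion, fell by 2.31 ± 0.22 in the tup1 deletion (adjusted p = 0.000611) and read −0.67 ± 0.22 in the ssn6 deletion (adjusted p = 0.0731). PRM1, for membrane fusion, rose by 1.40 ± 0.25 in the ssn6 deletion (adjusted p = 0.0106), a call lost without ssn6 replicate 1 (0.0876) or 2 (0.0735). In the tup1 deletion it passed downward narrowly (−0.86 ± 0.25, adjusted p = 0.0479), and 6 of the 7 arrays were each needed for that call, all but wild-type replicate 3. FIG2, a cell wall adhesin gene, rose by 0.80 ± 0.16 in the ssn6 deletion (adjusted p = 0.016), lost without ssn6 replicate 1 (0.112) or 2 (0.153) and with the block (0.0645).

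Of 8 measured genes that set or silence the mating type, 2 fell in the ssn6 deletion, where 10.3% of all genes were called lower. The tup1 deletion gave 1 rise and 1 fall, near the shares of all genes called higher (10.4%) and lower (12.6%). The count of 2 was 0 without ssn6 replicate 1 or 2 or wild-type replicate 3, 0 with the block, and 1 without wild-type replicate 1 or either tup1 replicate. HMRA1, the a1 gene of the silent cassette, read 4.04 and 3.64 in the ssn6 deletion, 3.87 and 3.85 in the tup1 deletion, and 3.52 to 4.29 in wild type, under the floor on all 7 arrays. The probe set named HMLALPHA1 (alpha1) read 10.98 and 10.96 in the ssn6 deletion, 10.59 and 10.77 in the tup1 deletion, and 11.19 to 11.80 in wild type. It passed downward in the tup1 deletion (−0.84 ± 0.19, adjusted p = 0.0222) and read −0.55 ± 0.19 in the ssn6 deletion (adjusted p = 0.0877). Its call was lost without tup1 replicate 1 (0.142) or 2 (0.0517), ssn6 replicate 1 or 2 (0.0514 each) or wild-type replicate 1 (0.0614), and with the block (0.0659). The cassettes repeat the mating-type locus in sequence, so this probe set cannot tell the silent copy from the active one. The same holds for HMRA2, which lies in the part shared with alpha2 and read 11.33 and 11.27 in the ssn6 deletion, 11.50 and 11.70 in the tup1 deletion, and 11.70 to 12.29 in wild type. It passed downward in the ssn6 deletion (−0.71 ± 0.19, adjusted p = 0.0405), a call lost with the block (0.0862), after median centring (0.0509) and in 6 of 7 fits that left out an array, with an adjusted p of up to 0.242.

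MCM1, the partner of alpha2 at these promoters, read 10.79 and 10.96 in the ssn6 deletion, 11.25 and 11.19 in the tup1 deletion, against 11.66, 11.33 and 11.71 in wild type. It passed downward in the ssn6 deletion (−0.69 ± 0.16, adjusted p = 0.025) and did not pass in the tup1 deletion (−0.35 ± 0.16, adjusted p = 0.157). The first call was lost without ssn6 replicate 1 (0.198) or 2 (0.134) or wild-type replicate 1 (0.0642) or 3 (0.0543), and with the block (0.0881). The silencing genes SIR2, SIR3 and SIR4 did not pass in either deletion, with differences between −0.17 and 0.44. SIR1 passed upward in the tup1 deletion (0.73 ± 0.19, adjusted p = 0.0313). That call was lost with the block (0.0927) and without any of ssn6 replicates 1 and 2 (0.0671 each), tup1 replicate 1 (0.182) and wild-type replicates 1 (0.0791) and 3 (0.0662).

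The genes next to the a-specific genes on the chromosome were examined in the same way. Of 14 direct protein-coding neighbours, 11 had a probe set. Of these 1 rose in the ssn6 deletion and 2 in the tup1 deletion, where 9.18% and 10.4% of all genes were called higher, 0 fell, and the medians were 0.01 and 0.16. The neighbours whose systematic names place them in divergent orientation, so that they share the upstream region, were GYP8 beside STE2 and CBT1 beside STE6. GYP8 passed neither in the ssn6 deletion (0.31 ± 0.15, adjusted p = 0.179) nor in the tup1 deletion (−0.20 ± 0.15, adjusted p = 0.366). CBT1 read 10.14 and 10.13 in the ssn6 deletion, 10.80 and 10.66 in the tup1 deletion, and 9.85 to 10.35 in wild type. It passed in the tup1 deletion (0.62 ± 0.17, adjusted p = 0.0412). That call did not hold once arrays were median-centred (0.0512) or without wild-type replicate 1 (0.0831). It was lost with only the genotypes compared (0.0882) and with the crossed block (0.0608). The same happened without either ssn6 array, and without tup1 replicate 1 or 2, where the differences were 0.55 and 0.69.

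The gene at the 3' side of BAR1, YIL014C-A, read 10.86 and 10.93 in the ssn6 deletion, 10.76 and 11.15 in the tup1 deletion, against 9.32, 9.99 and 10.01 in wild type. It rose by 1.12 ± 0.24 in the ssn6 deletion (adjusted p = 0.0202) and 1.18 ± 0.24 in the tup1 deletion (adjusted p = 0.015), and its difference between the deletions was −0.06 ± 0.26 (adjusted p = 0.909). The first call was lost without ssn6 replicate 1 (0.117) or 2 (0.146), and the second without tup1 replicate 1 (0.0551) or 2 (0.0718).

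**Figure D5:**
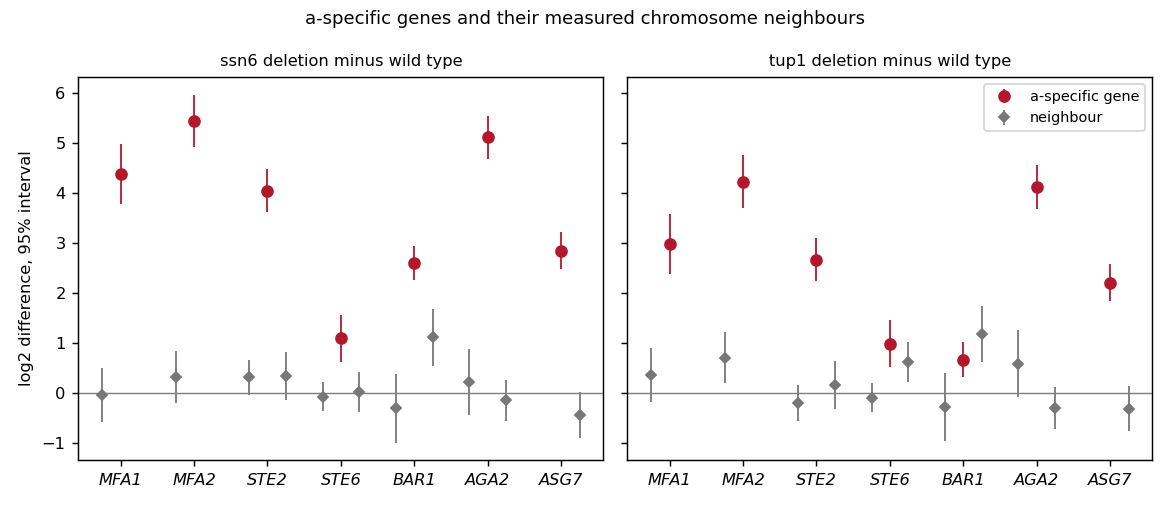
Log2 differences (vertical axis) with 95% intervals for each a-specific gene (red) and its measured left and right neighbours (grey, on either side of it), in the ssn6 deletion against wild type and the tup1 deletion against wild type. The neighbours lie between −0.44 and 1.18, and the highest is YIL014C-A, on the right of BAR1, which exceeds BAR1 in the tup1 deletion.

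Genes outside the list were ranked by how like their pattern over the 7 arrays was to the average of the a-specific genes. The a-specific genes were left out of this ranking. Likeness was measured as the root mean square difference, in log2 units over the 7 arrays, after each gene's own mean was subtracted. The closest was YCR102C (0.086), with 12.51 and 12.34 in the ssn6 deletion, 11.31 and 11.36 in the tup1 deletion, against 8.71, 9.19 and 8.86 in wild type. It was followed by TIR4 (0.177), a cell wall mannoprotein gene, PAU2 (0.267), BIO5 (0.278), of a biotin precursor transporter, YHR022C (0.279), PAU9 (0.304), HXT8 (0.315) and SPO20 (0.315). Of the a-specific genes themselves, STE2 (0.240) lay closest to their average. MFA1 (0.345), ASG7 (0.354), AGA2 (0.773), BAR1 (0.799), MFA2 (0.873) and STE6 (1.09) all lay farther from it than these 8. This distance also grows where a gene changes more or less than the average. Pearson's r with the average, which ignores size, was 0.980 to 0.999 for the 8 genes. It was 0.997 for MFA1, 0.996 for MFA2, 0.994 for STE2, 0.993 for ASG7 and 0.991 for AGA2. STE6 (0.946) and BAR1 (0.888) had lower r. The a-specific genes are themselves part of the average. The probe sets of PAU2 and PAU9 are of a kind that can take signal from close relatives.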

How the data were processed

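The authors deposited log2 expression values per probe set of a one-colour Affymetrix array, close to equal in distribution between arrays. RMA and limma appear in the submitters' processing notes with neither their use nor a version. Depth has no meaning here; signal over the floor limits precision. Each RNA sample had 1 array. Of 10928 probe sets the platform annotation gave 5498 a single budding yeast symbol, 1 several, 3683 none and 1746 a fission yeast gene, with 12 symbols updated from assembly R64, which also gave gene order. For 47 genes with several probe sets, none of them an a-specific gene, the brightest was used. All 7 arrays entered 1 linear model with a mean for every genotype (lmFit and eBayes of limma 3.58.1, under R 4.3.3; 4 residual and 3.19 prior degrees of freedom), two-sided, with Benjamini-Hochberg adjustment over 5449 genes at 0.05, and tested on simulated data. Adjusted p-values given alone in parentheses come from alternative settings. The settings named for a lost call are not always all of those that lost it. The 7 members, the lists and the tests were chosen with earlier results of these data known. Named were the 7 genes, CYC8 and TUP1, up to 4 called genes of each list, AGA1, MCM1, AXL1, STE3 and SIR2 to SIR4, called neighbours and the 8 genes of closest pattern; AFB1, HMRA1 and GYP8 were added after values were seen, and strain markers were checked. Figures used Python 3.11.15 and matplotlib 3.10.9.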

Additional observations from a re-analysis of the deposited data

How the results depend on the processing

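The rises of MFA1, MFA2, STE2, AGA2 and ASG7 passed in both deletions under all 17 alternatives, and BAR1 and STE6 kept their direction. Of 7 a-specific genes, 6 to 7 passed in the ssn6 deletion and 5 to 7 in the tup1 deletion. Their median moved between 3.93 and 4.14 in the ssn6 deletion and between 2.49 and 2.85 in the tup1 deletion. STE6 did not pass at an adjusted p of 0.01 or with a crossed block (0.053 for the ssn6 deletion and 0.0608 for tup1). BAR1 in the tup1 deletion also failed at 0.01 (main fit 0.0193) and with the crossed block (0.0769). Between the deletions the count of 2 became 4 with quantile normalization, median centring or only the genotypes compared, 5 with array weights, 1 at an adjusted p of 0.01 or with the crossed block, and 0 to 4 without single arrays, where the median moved between 0.97 and 1.29. Over all genes, 1059 passed in the ssn6 deletion, 2139 with array weights, 397 at 0.01, 552 with the crossed block and 279 to 1196 without single arrays. In the tup1 deletion 1255 passed, 767 with only the genotypes compared, 456 at 0.01, 686 crossed and 427 to 1366 without single arrays. Between the deletions 131 passed, 412 with array weights, 58 with the replicate block, 25 at 0.01 or crossed and 5 to 257 without single arrays. The replicate numbers share only a number. Same-numbered arrays deviated from their genotype means with a correlation over genes of −0.268 between the deletions, −0.361 and −0.268 between ssn6 and wild type, and 0.285 and 0.180 between tup1 and wild type. With the number as a block, 7, 6 and 2 a-specific genes passed in the 3 comparisons. The crossed block was chosen after seeing the data. For the other lists, 1 to 4 alpha-specific genes passed in the ssn6 deletion, 4 to 5 in the tup1 deletion and 1 to 4 between the deletions, over all alternatives. For pheromone signalling the ranges were 0 to 7, 3 to 6 and 0 to 3, for pheromone-induced genes 0 to 5, 2 to 4 and 0 to 5, for a-factor maturation 0 to 1, 0 to 1 and 0 to 2, and for mating-type regulators 0 to 6, 0 to 3 and 0. Of 56 calls of other named genes, 31 held without each array in turn. The causes of these changes were not tested.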
